A study of Mus musculus with 36 samples.

Results

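Signals of 10 genes of the thioredoxin, glutathione and peroxide defence of the cell were compared in single mouse blastocysts that each grew from 1 blastomere of a separated 2-cell embryo. The genes were Txnrd1, Txn1, Prdx1, Srxn1, Gclc, Gclm, Gpx4, Sod1, Hmox1 and Nfe2l2. They were chosen by their symbols for their function, with earlier results of these data known. Each of the 10 symbols stood on 1 of the 40160 transcript clusters with a gene symbol, transcript clusters being the gene-level units on which the array reports, and no member had several to choose from. All 10 lay above the detection level on 36 of 36 arrays, a level set on each array at the 90th percentile of its olfactory and vomeronasal receptors.

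The blastomeres came from B6C3F1 females mated with CD1 males and were moved at the 2-cell stage, after a start in KSOM(aa) that all embryos shared, into GM501 (10 blastocysts), SAGE 1-step (10 blastocysts) or KSOM(aa) (16 blastocysts) for 72 hours. GM501 and SAGE 1-step are media made for human assisted reproduction, and KSOM(aa) is a mouse embryo medium with amino acids. Embryos 9 to 18 gave 1 sister to GM501 and the other sister to SAGE 1-step, and embryos 1 to 8 gave both sisters to KSOM(aa). Each blastocyst was hybridized to 1 Mouse Transcriptome Array, and the values are log2 signals, so that a difference of 1 is a doubling. By their scan names the KSOM(aa) arrays form a set of their own, and the arrays of both other media share another, so that wherever KSOM(aa) is compared, the medium and the set of arrays cannot be told apart.

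Across the study, 12 arrays, those of embryos 9 to 14, differed from the rest, with 18S ribosomal RNA (Rn18s) at 16.15 to 17.65 against 17.96 to 18.71, and Gapdh at 13.90 to 15.24 against 15.48 to 15.93. This division of the embryos is in neither the labels nor the scan names but comes from these signals, and results are given for both sets of embryos below. Of the trophectoderm markers fixed for the comparison, 7 of 7 were detected, and of the epiblast markers 5 of 5, of the primitive endoderm markers 4 of 5, of the cumulus and granulosa cell markers 2 of 7 and of the blood cell markers 3 of 5. Lower RNA content per cell and fewer cells of a type cannot be told apart in such samples.

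The thioredoxin and glutathione systems are the main routes by which cells reduce hydrogen peroxide and oxidized proteins with electrons from NADPH. In the thioredoxin route, thioredoxin reductase recharges thioredoxin, which in turn recharges the peroxiredoxins. Glutathione is made by glutamate-cysteine ligase and is used by the glutathione peroxidases. Many of these genes are activated by NRF2, a transcription factor that KEAP1 holds low in unstressed cells and that binds the antioxidant response element. Embryos in culture can meet more oxygen than in the oviduct, which is why these genes are followed in embryo culture.

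The core of the antioxidant response element, TGACNNNGC, was searched on both strands in the RefSeq promoter windows (GRCm38.p6, 250 bases before to 50 bases after a gene's start). Windows were held for 8 of the 10 genes, and 6 of the 8 held the core in at least 1 window, beside 14.0% of all genes and 12.4% of all 32851 windows in the table. The stretches that hold it are shown because they link the genes by sequence. They are printed from 5′ to 3′ on the minus strand of the genome with the core in capitals, and lie at chr10:82859104-82859132 (Txnrd1), chr4:116685456-116685484 (Prdx1), chr2:152105542-152105570 (Srxn1), chr3:122245413-122245441 (Gclm), chr16:90220696-90220724 (Sod1) and chr2:75704885-75704913 (Nfe2l2).
Txnrd1: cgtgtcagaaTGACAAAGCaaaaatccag
Prdx1: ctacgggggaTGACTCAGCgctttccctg
Srxn1: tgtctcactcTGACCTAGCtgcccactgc
Gclm: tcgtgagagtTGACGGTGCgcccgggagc
Sod1: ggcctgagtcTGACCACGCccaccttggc
Nfe2l2: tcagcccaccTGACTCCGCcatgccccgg
Counted along the gene to the base of the core met first, the core began 92 bases before the start in Txnrd1, 133 in Prdx1, 134 in Gclm, 56 in Sod1 and 240 in Nfe2l2. In Srxn1 it began 28 bases after the start. For Txnrd1 it was in 1 of 3 windows. The letters were not in the 4 windows of Gpx4 or the 1 window of Txn1, and the NRF2 target genes Gclc and Hmox1 were not searched. A match is a description of the sequence and was not tested for binding.

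Txnrd1, which encodes the cytosolic thioredoxin reductase, a selenoprotein, was lower in both human media than in KSOM(aa). Its log2 signal (chromosome 10 of mm10, 82833951 to 82897724) ran from a lowest of 6.68 over a median of 7.48 to a highest of 8.49 in the 10 blastocysts in GM501. In SAGE 1-step the lowest, median and highest were 6.78, 7.50 and 8.30, and in the 16 blastocysts in KSOM(aa) they were 8.08, 8.72 and 10.01. All 10 blastocysts in GM501 and all 10 in SAGE 1-step lay below the KSOM(aa) median, and 6 in GM501 and 8 in SAGE 1-step lay below every blastocyst in KSOM(aa). The means were 7.70 ± 0.66 in GM501 and 8.84 ± 0.55 in KSOM(aa) (SD, n = 10 and n = 16), a 2.21-fold lower signal (log2 difference -1.15, standard error 0.23, adjusted p = 0.00242, limma). In SAGE 1-step the mean was 7.52 ± 0.54 (SD, n = 10), a 2.51-fold lower signal (log2 difference -1.33, standard error 0.23, adjusted p = 0.000507, limma).

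Gpx4, which encodes the selenoprotein glutathione peroxidase that reduces lipid peroxides in membranes, was also lower in both media. Its log2 signal (chromosome 10, 80047166 to 80056439) had a lowest, median and highest of 6.49, 6.90 and 7.13 in GM501, of 5.84, 6.85 and 7.42 in SAGE 1-step and of 7.05, 7.42 and 7.81 in KSOM(aa). In each of GM501 and SAGE 1-step, 8 of 10 blastocysts lay below every blastocyst in KSOM(aa). The signal was 1.41-fold lower in GM501 (log2 difference -0.50, standard error 0.13, adjusted p = 0.0124, limma) and 1.49-fold lower in SAGE 1-step (-0.57, standard error 0.13, adjusted p = 0.00406). In GM501 the adjusted p was 0.0979 with the sisters in KSOM(aa) averaged and 0.0801 with embryos 1 to 5 alone as KSOM(aa).

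Txnrd1 and Gpx4 were the only 2 of the 10 genes past the test in either comparison, and both were lower. Over all transcript clusters, detected or not, 3.60% were called lower and 4.06% higher in GM501, and 4.42% lower and 5.13% higher in SAGE 1-step. Calls were more frequent with the 22770 detected transcript clusters tested alone. There 1766 were lower and 2140 higher in GM501, and 2025 lower and 2471 higher in SAGE 1-step. Txnrd1 and Gpx4 were again the only 2 of the 10 genes called. No member was called higher in GM501 or SAGE 1-step. The median log2 difference of the 10 genes was -0.25 in GM501 and -0.12 in SAGE 1-step, beside 0.09 and 0.10 over all transcript clusters tested. Scaling each array to Actb, Gapdh and Hprt moved the median of all transcript clusters to 0.61 and 0.69. On that scale Txnrd1 stayed lower (-0.63 with adjusted p = 0.00921 in GM501 and -0.73 with adjusted p = 0.00261 in SAGE 1-step), whereas Gpx4 was at 0.02 in both and Txn1, Prdx1, Gclm and Sod1 passed the test as higher in both. Most transcript clusters did so on that scale. Of 40160, 31273 were called higher and 504 lower in GM501, and 33350 higher and 509 lower in SAGE 1-step. The reference genes themselves were not level, since Actb averaged 16.06 ± 0.36 (SD, n = 12) in embryos 9 to 14 and 17.28 ± 0.15 (SD, n = 8) in embryos 15 to 18. Of all calls, 53.1% were higher in GM501, against 27.6% with arrays centred on the median, 27.2% after quantile normalization and 98.4% after scaling to the reference genes. In SAGE 1-step these shares were 53.8%, 26.3%, 27.4% and 98.5%.

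**Figure D1:**
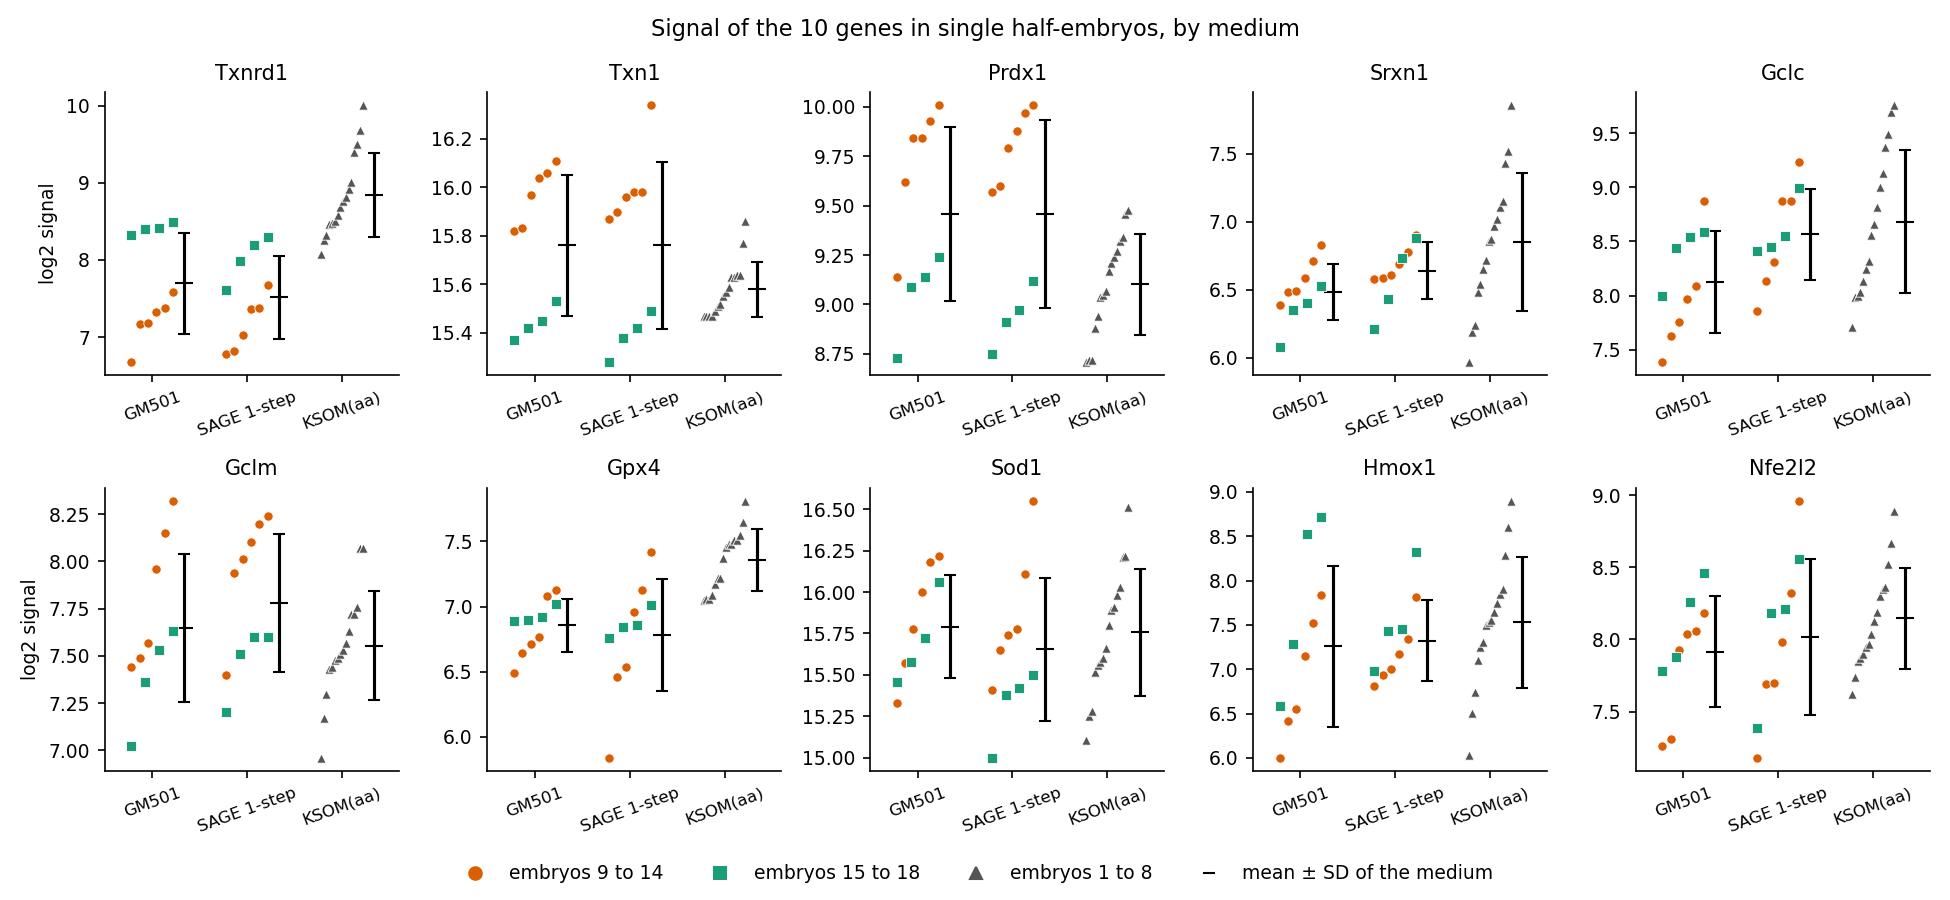
Log2 signal of the 10 genes in each blastocyst, by medium (10 in GM501, 10 in SAGE 1-step, 16 in KSOM(aa)). Colours and shapes mark embryos 9 to 14, 15 to 18 and 1 to 8, and the black bar is the mean ± SD of the medium. Within GM501 and SAGE 1-step, embryos 9 to 14 lie below embryos 15 to 18 in Txnrd1 (except that 16b lies below 11b in SAGE 1-step) and above them in Txn1.

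The other members of the thioredoxin route did not pass the test over all embryos. Txn1, thioredoxin itself (chromosome 4, 57943373 to 57956411), had a log2 signal of 15.76 ± 0.29 in GM501, 15.76 ± 0.34 in SAGE 1-step and 15.58 ± 0.11 in KSOM(aa), with log2 differences of 0.18 in both media (adjusted p = 0.278 and 0.256, limma). Prdx1, a peroxiredoxin that thioredoxin recharges (chromosome 4, 116685544 to 116700822), was at 9.46 ± 0.44, 9.46 ± 0.48 and 9.10 ± 0.25, with log2 differences of 0.36 in both (adjusted p = 0.17 and 0.155). Srxn1, which repairs over-oxidized peroxiredoxins (chromosome 2, 152105516 to 152111376), was at 6.48 ± 0.21 in GM501, 6.64 ± 0.21 in SAGE 1-step and 6.85 ± 0.51 in KSOM(aa), and all 10 blastocysts in GM501 lay below the KSOM(aa) median (log2 difference -0.36, adjusted p = 0.139).

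The glutathione synthesis genes also did not pass. Gclc, the catalytic subunit of glutamate-cysteine ligase (chromosome 9, 77754535 to 77794489), had log2 differences from KSOM(aa) of -0.55 in GM501 (standard error 0.22, adjusted p = 0.118, limma) and -0.11 in SAGE 1-step (adjusted p = 0.756). Gclm, its modifier subunit (chromosome 3, 122245557 to 122269984), had log2 differences of 0.09 (adjusted p = 0.701) and 0.23 (adjusted p = 0.309). The catalytic and modifier subunits had values of opposite sign in each medium, but this did not hold with embryos 15 to 18 only. There Gclc was at -0.29 in GM501 and -0.08 in SAGE 1-step, and Gclm at -0.17 and -0.08.

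Sod1, the cytosolic superoxide dismutase, differed by 0.03 in GM501 and -0.10 in SAGE 1-step on the log2 scale (adjusted p = 0.907 and 0.671, limma). Hmox1, the inducible heme oxygenase and a common readout of NRF2 activity, differed by -0.27 and -0.21 (adjusted p = 0.563 and 0.653), with a wide spread, its log2 signal running from 6.00 to 8.72 in GM501, 6.81 to 8.32 in SAGE 1-step and 6.03 to 8.90 in KSOM(aa). Nfe2l2, which encodes NRF2, differed by -0.23 and -0.13 (adjusted p = 0.411 and 0.641). For Hmox1 the 95% intervals of the difference, -0.85 to 0.31 in GM501 and -0.78 to 0.37 in SAGE 1-step, leave room for a change of either sign.

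**Figure D2:**
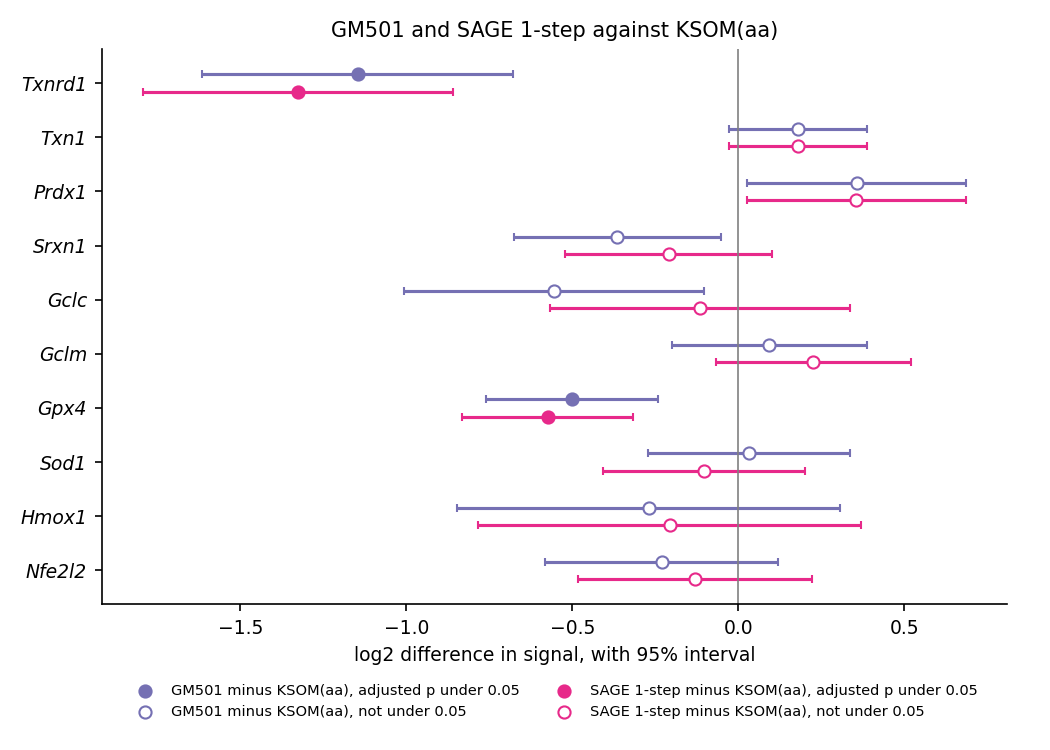
Log2 difference in signal of the 10 genes, GM501 minus KSOM(aa) and SAGE 1-step minus KSOM(aa), with 95% intervals on 33 residual degrees of freedom. Filled points passed an adjusted p of 0.05 (limma, over 40160 transcript clusters), which only Txnrd1 and Gpx4 did in each medium.

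Between GM501 and SAGE 1-step no member passed the test, nor did any transcript cluster (0% of 40160 called by limma, with 611 at an unadjusted p under 0.05 and none of the 10 genes among them). The methods' t-test put 62 transcript clusters under an unadjusted p of 0.01 and none of the 10 genes. The log2 difference of GM501 minus SAGE 1-step was 0.18 in Txnrd1 (95% interval -0.34 to 0.70), 0.07 in Gpx4 (-0.21 to 0.36) and -0.06 in Hmox1 (-0.70 to 0.58). The largest in size was -0.44 in Gclc (-0.94 to 0.06, adjusted p = 1). These intervals do not show that the media act alike on the genes. They and the limma counts of this comparison come from a fit that did not pair the sisters. With each embryo as a fixed block, again none of the 10 genes and 0 of 40160 transcript clusters passed (limma). Within embryos, GM501 minus SAGE 1-step in Txnrd1 ran from -0.30 to 0.79. Whether the difference between the media itself differed between the embryo sets was tested by an interaction, with 0% of transcript clusters called, 2734 at an unadjusted p under 0.05 and no member among them. In Txnrd1 GM501 was the higher sister in 2 of 6 embryos from 9 to 14 and in 4 of 4 from 15 to 18 (interaction -0.34, standard error 0.26, adjusted p = 0.776).

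Embryos 9 to 14 were lower in Txnrd1 and higher in Txn1, Prdx1 and Gclm than embryos 15 to 18, in the same 2 media. In Txnrd1 the 4 blastocysts of embryos 15 to 18 in GM501 had 8.42, 8.40, 8.49 and 8.32, and their sisters in SAGE 1-step had 8.20, 7.61, 8.30 and 7.99. Embryos 9 to 14 had 6.68 to 7.59 in GM501 and 6.78 to 7.68 in SAGE 1-step, so that the sets did not overlap within a medium except that 16b in SAGE 1-step (7.61) was below 11b (7.68). The mean was 7.20 ± 0.32 in embryos 9 to 14 and 8.22 ± 0.29 in embryos 15 to 18 (SD, n = 12 and n = 8), a 2.03-fold lower signal (log2 difference -1.02, standard error 0.16, adjusted p = 6.49e-05, limma with the embryo as a random block). Scaled to the reference genes it was -0.41 (adjusted p = 0.072).

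Txn1 was at 15.99 ± 0.14 in embryos 9 to 14 and 15.42 ± 0.08 in embryos 15 to 18, and all 12 values of embryos 9 to 14 lay above all 8 of embryos 15 to 18 (log2 difference 0.57, adjusted p = 1.06e-05, limma). Prdx1 was at 9.77 ± 0.25 and 8.99 ± 0.19, with 11 of 12 values above all 8 (0.77, adjusted p = 0.00043). Gclm was at 7.90 ± 0.34 and 7.43 ± 0.22, with overlap (0.47, adjusted p = 0.0156). These 3 of 10 genes were called higher and 1 of 10 lower, against 48.8% and 9.49% of all transcript clusters, so that higher calls were no more frequent among them than over all. The median log2 difference of all transcript clusters was 0.30 and that of the 10 genes 0.02. With arrays centred on the median, Txnrd1 and Hmox1 were called lower and Txn1, Prdx1 and Gclm no longer passed (0.24, 0.44 and 0.14, adjusted p = 0.0688, 0.0505 and 0.644). With sisters averaged Gclm was at an adjusted p of 0.0509. Of all calls 83.7% were higher in embryos 9 to 14, against 30.0% with arrays centred on the median, 48.5% after quantile normalization and 96.5% after scaling to the reference genes.

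With the media pooled, as an alternative added after the values were seen, each set was compared with KSOM(aa). All 12 blastocysts of embryos 9 to 14 lay below all 16 in KSOM(aa) in Txnrd1 (log2 difference -1.64, 95% interval -1.98 to -1.31, adjusted p = 4.11e-10, limma), and Gpx4 differed by -0.59 (adjusted p = 6.02e-05). Txn1 (0.41), Prdx1 (0.67) and Gclm (0.35) were called higher in this set, so that 3 of 10 were higher and 2 of 10 lower against 50.2% and 10.9% of all transcript clusters. In embryos 15 to 18, whose Rn18s and Gapdh lay in the range of the arrays in KSOM(aa), Txnrd1 differed by -0.62 (95% interval -1.01 to -0.24, adjusted p = 0.0446) and Gpx4 by -0.46 (-0.72 to -0.19, adjusted p = 0.0355). All 8 of these blastocysts lay below all 16 in KSOM(aa) in Gpx4, and 2 of 8 did in Txnrd1. These were 2 of 10 genes lower and 0 of 10 higher against 3.35% and 1.71% of all transcript clusters, detected or not. In a fit that took each embryo as a random replicate block, neither passed (adjusted p = 0.0921 for Txnrd1 and 0.0683 for Gpx4). Taken by medium, embryos 15 to 18 gave no call among the 10 genes: Txnrd1 differed from KSOM(aa) by -0.43 in GM501 (adjusted p = 0.358) and by -0.82 in SAGE 1-step (adjusted p = 0.131), and Gpx4 by -0.42 (adjusted p = 0.121) and -0.49 (adjusted p = 0.0759).

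**Figure D3:**
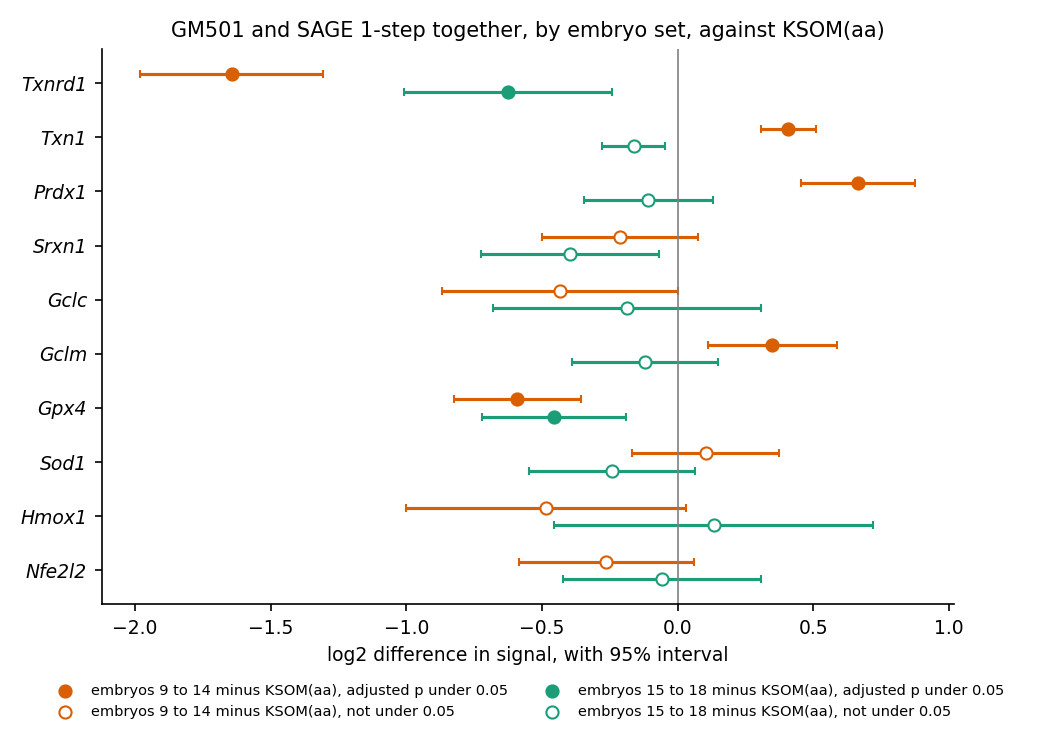
Log2 difference in signal from KSOM(aa) with 95% intervals, for the 12 blastocysts of embryos 9 to 14 and the 8 of embryos 15 to 18, GM501 and SAGE 1-step together. Both sets lay below 0 in Txnrd1 (-1.64 and -0.62) and Gpx4 (-0.59 and -0.46), and Txn1 and Prdx1 lay above 0 in embryos 9 to 14 and below 0 in embryos 15 to 18. The intervals take each blastocyst as a sample, although sisters share an embryo. With each embryo as a random block, neither Txnrd1 nor Gpx4 passed in embryos 15 to 18 (adjusted p = 0.0921 and 0.0683, limma).

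Some markers of the trophectoderm, the outer cell layer of the blastocyst, were also lower in the human media. In each of the human media, 4 of 7 markers were lower than in KSOM(aa), beside 3.60% of all transcript clusters in GM501 and 4.42% in SAGE 1-step. Krt8, a keratin of that layer, had log2 differences of -1.16 and -1.38 (adjusted p = 0.00449 and 0.000872, limma). The summed signal of the 7 markers, on the log2 scale, was 17.60 to 18.59 in GM501, 17.04 to 18.67 in SAGE 1-step and 18.58 to 18.98 in KSOM(aa), and was 17.04 to 18.08 in embryos 9 to 14 and 17.76 to 18.67 in embryos 15 to 18. With the media pooled, 6 of the 7 were lower than KSOM(aa) in embryos 9 to 14, beside 10.9% of all transcript clusters (median log2 difference -0.78, beside 0.21 over all). In embryos 15 to 18, 2 of the 7 were lower, beside 3.35% (median -0.32, beside -0.09). Those 2 were Eomes, a transcription factor of the trophectoderm (-0.82, adjusted p = 0.00944), and the keratin Krt18 (-0.32, adjusted p = 0.0214), and Krt8 was at -0.38 there (adjusted p = 0.118). The part of these markers in the Txnrd1 and Gpx4 results was not tested. No cumulus and granulosa, blood cell or primitive endoderm marker passed against KSOM(aa) in either medium over all embryos. Between the embryo sets, however, 5 of 7 cumulus and granulosa and 3 of 5 blood cell markers were higher in embryos 9 to 14. Of all transcript clusters, detected or not, 48.8% were higher there and 9.49% lower. The medians of these markers were 0.31 and 0.32, beside 0.30 over all transcript clusters. Of the primitive endoderm markers 1 was higher and 2 were lower. The summed cumulus and granulosa signal was 7.36 to 8.04 in embryos 9 to 14 and 6.97 to 7.79 in embryos 15 to 18, and that of the blood cell markers 7.38 to 8.25 and 7.20 to 8.38, on the log2 scale. The part of these 2 marker lists in the Txn1, Prdx1 and Gclm results was not tested. Against KSOM(aa), with the media pooled, 4 of the 7 and 2 of the 5 were higher in embryos 9 to 14, beside 50.2% of all transcript clusters. None was higher in embryos 15 to 18, beside 1.71%, and 0 and 1 had an unadjusted p under 0.05 there (limma). Of 5 epiblast markers, 0 passed in GM501 and 1 was lower in SAGE 1-step.

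Sisters were compared within each embryo. In KSOM(aa) the absolute log2 difference between sisters had a median over the 8 embryos of 0.50 in Txnrd1 (0.08 to 1.20), 0.75 in Hmox1 (0.19 to 1.53) and 0.53 in Gclc (0.10 to 1.44). It was 0.06 in Txn1 (0 to 0.14), 0.13 in Gclm and 0.18 in Prdx1. Over the 10 genes the median was 0.31, beside 0.29 over the 22770 detected transcript clusters. Hmox1 was thus among the less alike genes between sisters, above 92.9% of detected transcript clusters, and Txn1 above 0.975%. In the 10 embryos divided between media the median of the absolute difference was 0.82 in Hmox1, above 95.2%, and 0.08 in Txn1, above 1.20%.

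Whether embryos differed beyond their sisters was tested by a moderated F test. In KSOM(aa) no member passed (0.187% of all transcript clusters did), and the smallest unadjusted p was 0.00953 in Srxn1 (adjusted p = 0.261, limma). The share of variance in KSOM(aa) that lay between embryos, as an intraclass correlation, was 0.77 in Txn1, 0.67 in Srxn1, 0.56 in Gclm and 0.09 in Nfe2l2, with a median of 0.38 over the 10 genes and 0.18 over all detected transcript clusters. Within the embryo sets of GM501 and SAGE 1-step no member passed either (0.700% of all did), the smallest p being 0.0585 in Gpx4 (adjusted p = 0.416, limma).

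**Figure D4:**
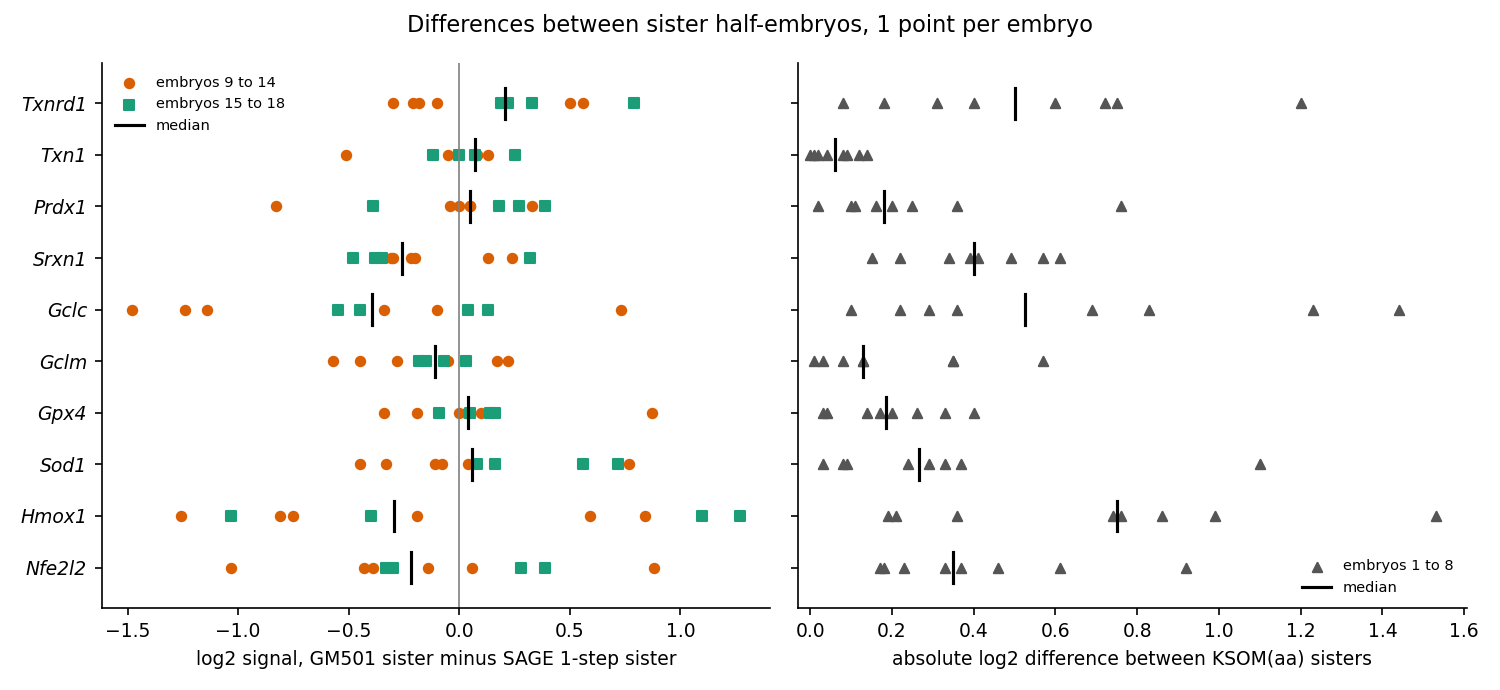
Left, log2 signal of the GM501 sister minus that of the SAGE 1-step sister in embryos 9 to 18, 1 point per embryo. Right, absolute log2 difference between sisters in KSOM(aa), 1 point per embryo, with the median as a bar in both. Hmox1 shows a wide scatter in both panels (-1.26 to 1.27 on the left), and Txn1 a narrow one on the right (0 to 0.14), whereas on the left Txn1 runs from -0.51 to 0.25.

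Among 67 other genes of the pathway on 6 lists, most did not pass against KSOM(aa). None of 14 other thioredoxin system genes passed in either medium by limma, with 2 in GM501 and 1 in SAGE 1-step at an unadjusted p under 0.05. Superoxide and peroxide removal, with 4 genes, gave no call either (0 and 1 at an unadjusted p under 0.05). Among 23 glutathione system genes GM501 gave 1 call and SAGE 1-step 2, all lower, beside 3.60% and 4.42% of all transcript clusters called lower. Gsr, the glutathione reductase that uses NADPH to recharge glutathione, was lower in both (2.02-fold in GM501, log2 difference -1.02, adjusted p = 0.0228, and 2.25-fold in SAGE 1-step, -1.17, adjusted p = 0.00765), and Gpx1, a cytosolic glutathione peroxidase, in SAGE 1-step (-0.42, adjusted p = 0.0146). The median over that list was 0.06 and 0.01, close to that of all transcript clusters (0.09 and 0.10). None of 5 genes of selenoprotein synthesis passed (1 and 2 at an unadjusted p under 0.05).

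The list of NRF2 control and other NRF2 targets held 15 genes, with 3 called in GM501 and 5 in SAGE 1-step, each of them lower. Of all transcript clusters, 3.60% were called lower in GM501 and 4.42% in SAGE 1-step. The list's median log2 difference was -0.09 and -0.01. Sqstm1, an autophagy receptor and NRF2 target that binds KEAP1, showed the largest difference of the list (3.67-fold lower in GM501, log2 difference -1.87, adjusted p = 4.02e-05, and 3.21-fold lower in SAGE 1-step, -1.68, adjusted p = 0.000148). It averaged 8.18 ± 0.56 in GM501, 8.38 ± 0.77 in SAGE 1-step and 10.06 ± 0.57 in KSOM(aa). Keap1, the inhibitor of NRF2, was lower by 0.44 and 0.49 on the log2 scale (adjusted p = 0.00621 and 0.00201). Sesn2, a stress-induced regulator of mTORC1, was lower in both (-1.23 and -1.16, adjusted p = 0.0365 and 0.0434), and Bach1, a repressor at antioxidant response elements, in SAGE 1-step (-0.57, adjusted p = 0.034). Scaled to the reference genes, Keap1 (0.09 and 0.10), Gpx1 (0.23 and 0.18) and, in SAGE 1-step, Bach1 (0.02) turned positive, so that their lower calls were not kept on that scale. Ftl1, which lies on a transcript cluster with 3 symbols, makes the remaining gene in SAGE 1-step (-0.55, adjusted p = 0.0471) and is named here after its value was seen.

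The NADPH supply genes went both ways. Of the 6 on the list, 2 were lower in GM501 and 1 was higher, beside 3.60% and 4.06% of all transcript clusters. In SAGE 1-step there were 2 lower and 0 higher, beside 4.42% and 5.13%. Pgd, an enzyme of the pentose phosphate pathway that makes NADPH, was 2.09-fold lower in GM501 (log2 difference -1.06, adjusted p = 0.0377, limma) and 3.03-fold lower in SAGE 1-step (-1.60, adjusted p = 0.00201). Taldo1, transaldolase of the same pathway, was 1.83-fold and 1.86-fold lower (adjusted p = 0.0154 and 0.0115). Idh1, the cytosolic isocitrate dehydrogenase that makes NADPH, was 1.76-fold higher in GM501 (log2 difference 0.82, adjusted p = 0.0297) and at 0.61 in SAGE 1-step (adjusted p = 0.0948). Their median log2 difference was -0.28 and -0.29. Keap1 and Sqstm1 were also lower in embryos 15 to 18 with the media pooled (-0.51 and -1.14, adjusted p = 0.00225 and 0.00142), where Idh1 was 2.57-fold higher (adjusted p = 4.89e-05), whereas Pgd passed in embryos 9 to 14 (-2.02) and was at -0.30 in embryos 15 to 18 (adjusted p = 0.454).

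**Figure D5:**
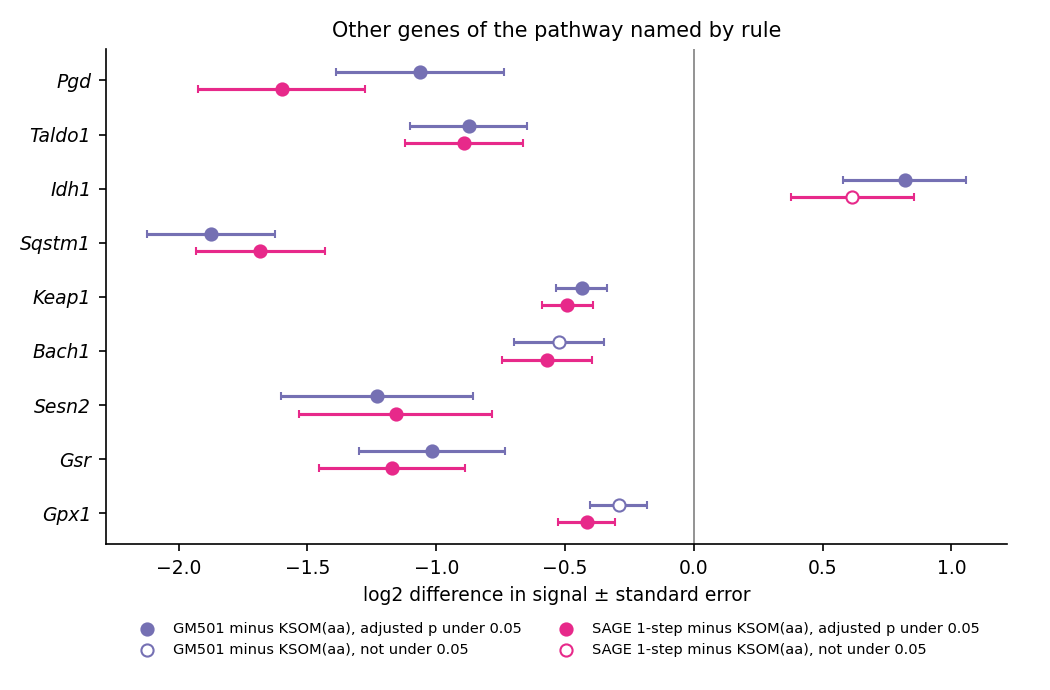
Log2 difference in signal ± standard error of the 9 other genes of the pathway named by rule, GM501 minus KSOM(aa) and SAGE 1-step minus KSOM(aa). Filled points passed an adjusted p of 0.05, and all but Idh1 lie below 0.

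The transcript clusters whose log2 signal followed that of Txnrd1 most closely over the 36 arrays, each value being centred on the mean of its medium, were Tjp3 (Pearson r = 0.79), Ywhae (0.77), Abcc4 (0.76), Fancm (0.76) and Inadl (0.76), of 13146 detected transcript clusters with 1 symbol (predicted genes and RIKEN clones left out). The arrays share the division of the embryos, and centred on medium and embryo set the same genes had r of 0.62, 0.52, 0.61, 0.59 and 0.57. For Hmox1 they included Shmt2 (0.70), Slc29a1 (0.68), Unc119b (0.68) and Wars (0.68), with 0.66, 0.65, 0.66 and 0.64 after the second centring. Among the 10 genes themselves the order of the pairs changed with the centring. Centred on medium, Txn1 and Prdx1 had the highest r (0.82) and Txnrd1 and Txn1 the lowest (-0.58), values that were 0.45 and 0.002 within medium and embryo set. In the second centring Prdx1 and Sod1 had the highest r (0.58) and Txn1 and Nfe2l2 the lowest (-0.24).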

How the data were processed

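The authors hybridized RNA of each half-embryo to a Mouse Transcriptome Array and deposited log2 signals per transcript cluster, normalized by SST-RMA in Affymetrix Expression Console (no version given) on mm10. The column of half-embryo 1a, as deposited, is named a score here, since the value of 1 transcript cluster is too large for a log2 signal, and that transcript cluster was left out. Values ran from 2.09 to 19.17. The 2 deposited tables differed in 0 cells. Being array data, the number of arrays limits the precision.

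Of 65956 transcript clusters, 40160 carried a symbol and were tested with limma 3.58.1 in R 4.3.3 (lmFit and eBayes with trend, Benjamini-Hochberg over all 40160, threshold 0.05). The media were fitted together. Embryo sets were compared with the embryo as a random block, and embryos by moderated F tests. P-values treat each half-embryo as a sample, although sisters share an embryo. GM501 and SAGE 1-step sisters of a number come from the same embryo by the labels, so the numbers pair the samples. The consensus correlation of sisters was 0.374 in the fit over all media and 0.169 in that of GM501 and SAGE 1-step with the embryo set modelled.

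Named were the 10 genes and, of each list of other pathway genes, up to 4 that passed against KSOM(aa) (smallest adjusted p). Of the transcript clusters most like Hmox1, 1 is not reported here. The genes and lists were chosen with earlier results of these data known. In simulated data for GM501 against KSOM(aa), with a log2 change of 1 in 200 of 40160 transcript clusters, 163 were recovered and 12 unchanged ones were called. The simulated arrays were drawn independently, without the likeness of sisters or the division of the embryos. The simulation therefore does not give the recovery to be had in these data. Alternatives covered normalization, scaling, filtering, array weights, the embryo block, embryo subsets, half-embryo 16b and the methods' t-test.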

Additional observations from a re-analysis of the deposited data

Results flagged for a closer look

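Among 40 groups of 8 or 10 values (the signals of each gene in GM501 and in SAGE 1-step and its sister differences in KSOM(aa) and between the media), 4 had a value far from the rest, all of them sister differences, and chance gives about 1 in 20 groups. Whether that rate holds for the absolute differences in KSOM(aa), which cannot fall below 0, was not tested. The groups are also not independent, with r = 0.58 between Prdx1 and Sod1 within medium and embryo set. Embryo 2 was the embryo concerned in both KSOM(aa) cases. Its sisters differed by 1.10 in Sod1 on the log2 scale, where the other 7 embryos ran from 0.03 to 0.37, and by 0.76 in Prdx1, where the others ran from 0.02 to 0.36. In Gpx4 the GM501 sister of embryo 10 was 0.87 above its SAGE 1-step sister, where the other 9 embryos ran from -0.34 to 0.16. In Txn1 the GM501 sister of embryo 9 was at -0.51 relative to its SAGE 1-step sister, where the others ran from -0.12 to 0.25.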

How the results depend on the processing

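Of the 10 genes, 2 passed in GM501 and 2 in SAGE 1-step against KSOM(aa). The count became 5 and 5 with embryos 9 to 14 only, 0 and 0 with embryos 15 to 18 only, 4 and 4 with robust array weights, and 5 and 6 scaled to Actb, Gapdh and Hprt. In GM501 it was also 4 after quantile normalization and 1 with embryos 1 to 5 as KSOM(aa) or with sisters in KSOM(aa) averaged. Over all 40160 transcript clusters, 3076 in GM501 and 3836 in SAGE 1-step were called. These calls became 20901 and 18672 with embryos 9 to 14 only, and 277 and 294 with embryos 15 to 18 only. They were 8142 and 13070 with robust array weights, and 31777 and 33859 scaled to the reference genes. In GM501 they were 4436 after quantile normalization, 834 with embryos 1 to 5 as KSOM(aa) and 591 with sisters in KSOM(aa) averaged. Between embryo sets the count of the 10 genes was 4 (Txnrd1, Txn1, Prdx1 and Gclm), 2 centred on the median (Txnrd1 and Hmox1) and 3 with sisters averaged (without Gclm). Scaled to the reference genes it was 6, without Txnrd1 and with Srxn1, Sod1 and Gpx4 added as higher (Gpx4 adjusted p = 0.0216). Over all transcript clusters these fits called 23416, 10022, 22036 and 33816, in the same order. For both media of embryos 15 to 18 against KSOM(aa) the count of the 10 genes was 2, and 0 once each embryo was a random replicate block. Calls over all transcript clusters were 2031, and 864 with the block. Between embryo sets Sod1 also passed without that block (0.34, adjusted p = 0.0471). The block changed no other call among the 10 genes, and with it Txnrd1 and Gpx4 in GM501 had adjusted p = 0.00425 and 0.0208 (limma). Leaving out half-embryo 16b left the counts at 2, 2 and 4.

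Signs turned in these cases, and the cause was not tested. Scaled to the reference genes, GM501 gave Srxn1 0.16, Gpx4 0.02, Hmox1 0.25 and Nfe2l2 0.29, SAGE 1-step gave Srxn1 0.38, Gclc 0.48, Gpx4 0.02, Sod1 0.49, Hmox1 0.39 and Nfe2l2 0.46, and embryos 9 to 14 against 15 to 18 gave Gclc 0.36, Gpx4 0.47 and Nfe2l2 0.40. With embryos 15 to 18 only, GM501 gave Txn1 -0.14, Prdx1 -0.05, Gclm -0.17, Sod1 -0.05 and Hmox1 0.25, SAGE 1-step gave Txn1 -0.19, Prdx1 -0.16, Gclm -0.08 and Hmox1 0.01, and GM501 against SAGE 1-step gave Hmox1 0.23. Centred on the median, GM501 gave Gclm -0.04 and Sod1 -0.10, and the embryo sets Srxn1 -0.15. Quantile normalization gave Gclm -0.04 and Sod1 -0.02 in GM501. Embryos 1 to 5 as KSOM(aa) gave Sod1 -0.06 and Hmox1 0.08 in GM501, and Srxn1 0.03 and Hmox1 0.14 in SAGE 1-step. Sod1 in SAGE 1-step was 0.12 with embryos 9 to 14 only and 0.10 with robust array weights, which also gave Hmox1 0.06 between GM501 and SAGE 1-step. Of the single-gene values, 296 kept direction and side of the threshold, 24 passed it newly, 13 no longer passed and 35 turned sign. The methods' t-test gave Txnrd1 and Gpx4 at its threshold in both media, among 5473 transcript clusters in GM501 and 5835 in SAGE 1-step. No gene had another transcript cluster to try.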
